A study of Mus musculus and Homo sapiens with 12 samples.

Results

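Transcripts of 8 genes that carry or execute death signals downstream of the transcription factor p53 were followed in blood progenitors that had lost the RNA helicase DDX21. The receptor genes were FAS and TNFRSF10B, which encode death receptors, and EDA2R of the same TNF receptor superfamily. The others were the membrane protein gene PERP, the adaptor gene PIDD1, the exonuclease gene AEN, the initiator caspase gene CASP8 and the kinase gene RIPK1. All 8 genes were given as a list of names and matched by symbol, which found 8 of 8 among the 55487 mouse and 78932 human genes in the count tables. Messenger RNA had been sequenced in 12 libraries, 3 in each of 4 groups. The mouse libraries came from fetal liver at E13.5, sorted as Kit-positive cells without lineage antigens (LK cells). WT embryos were Ddx21f/f, with loxP-flanked alleles and no Cre in the label, and cKO embryos were Vav-Cre; Ddx21f/f, so both groups carried the floxed alleles. The Vav1 promoter drives Cre broadly in blood cells. The human libraries came from hematopoietic cells differentiated from the embryonic stem cell line H1 and sorted for CD34, CD45, CD43 and the hairpin vector 2 days after lentivirus. They carried shNC-mCherry, the control hairpin, or shDDX21-mCherry. All human cells derive from a single line. The labels do not say whether libraries of a group came from separate embryos or cultures, so p-values measure the spread between these libraries, which may be technical.

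DDX21 works in the nucleolus, where ribosomes are built, and disturbed ribosome assembly is a known trigger of p53 through ribosomal proteins that bind MDM2. Death receptors are surface proteins of the TNF receptor superfamily: when ligand binds FAS or TNFRSF10B, the adaptor FADD recruits caspase-8, which starts proteolysis that kills the cell. RIPK1 sits at the same complexes and can pass the signal to NF-kB, to caspase-8 or to necroptosis. EDA2R binds ectodysplasin-A2 and signals through TRAF proteins. PIDD1 assembles the PIDDosome, which activates caspase-2, and AEN is an exonuclease of nucleus and nucleolus that was described as a p53-induced gene. FAS, TNFRSF10B, EDA2R, PERP, PIDD1 and AEN are established p53 target genes.

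Promoter sequence was examined for the mouse members because 6 of them are p53 targets. RefSeq promoters (GRCm38.p6, 250 bases before to 50 after each annotated start) were at hand for 6 of the 8 members. Tnfrsf10b and Perp had no entry. The consensus p53 half-site of 10 bases, which reads the same on both strands, was searched without mismatches. It was found in 8.36% of the 32851 promoters in the table. Among the members it was found in 1, Aen, and no exact match lay in these windows of Fas, Eda2r, Pidd1, Casp8 or Ripk1. The matches of Aen and of Cdkn1a, the gene of the cell cycle inhibitor p21 and a textbook p53 target, are printed with the half-site in capitals. Cdkn1a had another match in the same promoter, 73 bases before the start, which is not printed. The upstream 250 bases of Fas and Eda2r, the members with the highest fold changes, are printed for comparison and hold no capitals.
Aen, chr7:78895927-78895956, plus strand: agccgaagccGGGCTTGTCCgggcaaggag
Cdkn1a, chr17:29090923-29090952, plus strand: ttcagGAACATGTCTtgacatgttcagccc
Fas, chr19:34290409-34290658, plus strand: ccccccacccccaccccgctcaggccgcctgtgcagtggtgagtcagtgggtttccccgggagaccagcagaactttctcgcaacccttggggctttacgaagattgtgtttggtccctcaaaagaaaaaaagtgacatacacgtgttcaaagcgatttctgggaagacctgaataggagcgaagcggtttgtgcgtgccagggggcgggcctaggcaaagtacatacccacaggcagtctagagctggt
Eda2r, chrX:97377210-97377459, minus strand: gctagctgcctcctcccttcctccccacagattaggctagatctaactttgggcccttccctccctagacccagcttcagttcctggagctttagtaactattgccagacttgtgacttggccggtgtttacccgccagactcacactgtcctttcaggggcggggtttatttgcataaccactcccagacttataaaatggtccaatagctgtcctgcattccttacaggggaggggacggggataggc
The Aen match began 11 bases into the transcript from one RefSeq start and 121 bases before the other. The printed Cdkn1a match began 51 bases before one of its 2 RefSeq starts, and the window of the other start held no match. A match is a string of letters and was not tested as a binding site. Sites with mismatches or outside these windows were not searched for, so a window without a match does not show that a gene lacks one.

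Libraries held between 15289510 and 23898130 counts. Ddx21 itself fell to 19.7% of WT in cKO (log2 fold change -2.35, SE 0.033) and to 14.5% of shNC in the human cells (-2.78, SE 0.029), with no overlap between groups. Progenitor markers were present but moved in both directions: 3 of 9 were called higher and 3 lower in the mouse, and 4 of 8 higher and 4 lower in the human cells. Kit, used for the mouse sort, was lower (362 CPM in WT, 317 CPM in cKO), and Cd34 was higher by 0.69 on the log2 scale. Of the human sort antigens CD34 was higher (249 CPM in shNC, 297 CPM in shDDX21), SPN (CD43) was higher by 0.35, and PTPRC (CD45) changed by -0.45. The human progenitor transcription factor genes went both ways. GATA2, LMO2 and MYB changed by -1.12, -0.77 and -0.61, while TAL1 changed by 0.54. The part of these shifts in the members' values was not tested. CPM scales each library to the same total, after adjusting the totals by TMM factors. A difference was called at an adjusted p under 0.05 in edgeR's quasi-likelihood test, adjusted over all genes tested in an experiment by the Benjamini-Hochberg method.

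All 8 members were higher in cKO than in WT mouse cells, and in each of them the 3 cKO libraries lay above the 3 WT libraries. The 3 receptor genes and Perp changed by over 6-fold, while the other 4 changed by less than 2-fold. Of the 14918 mouse genes tested, 36.5% were called, 20.7% as higher, and 9.08% were called with at least a 2-fold change, 7.27% upwards. In 49% of genes the groups did not overlap, with cKO above in 27.6% and below in 21.4%. Higher genes were 56.6% of the mouse calls with TMM factors and 68.9% with total counts as the scale. No member was called lower by edgeR, by DESeq2, or at an unadjusted p under 0.05. The median log2 fold change was 1.76 over the 8 members and 0.00057 over all genes tested. All 8 passed the filter on low counts, but Fas passed it through its cKO libraries alone, so for Fas a difference was fixed by that step. The other 7 passed in all 6 mouse libraries.

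The receptor genes started lowest. Fas (ENSMUSG00000024778; GRCm38 chromosome 19, 34290666 to 34327772) was covered by 1, 7 and 3 counts in WT libraries 1 to 3 and by 481, 499 and 401 counts in cKO. The WT signal is therefore a handful of reads, against a well covered gene in each cKO library. In CPM this was 0.175 ± 0.151 in WT and 19.8 ± 1.43 in cKO (SD, n = 3 each). The ratio of the summed counts, scaled for depth, was 116, with an exact 95% interval of 64.6 to 233 that covers counting error only. The fitted log2 fold change was 6.81 (SE 0.29), and 7.67 without WT replicate 2, which held 7 of the 11 WT counts. With no filter on low counts it was 6.79 (adjusted p 5.78e-10). Eda2r (ENSMUSG00000034457; chromosome X, 97333840 to 97377216), the receptor for ectodysplasin-A2, was measured at 1.03, 0.779 and 0.835 CPM in WT and at 84.9, 89.0 and 82.8 CPM in cKO. Replicates lay close together in both groups, with a rise of 6.59 on the log2 scale (SE 0.098, adjusted p 5.91e-08). Tnfrsf10b (ENSMUSG00000022074; chromosome 14, 69767472 to 69784411), which encodes the TRAIL receptor of the mouse, was at 3.14, 3.65 and 4.18 CPM in WT and at 54.5, 55.3 and 52.9 CPM in cKO. It rose by 3.89 on the log2 scale (SE 0.10, adjusted p 7.76e-07), or 14.8-fold.

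Perp, Aen and Pidd1 were expressed in every WT library before any change. Perp (ENSMUSG00000019851; chromosome 10, 18845020 to 18857073), a tetraspan membrane protein needed for p53-dependent death in some cells and for desmosomes in epithelia, was at 9.64, 9.73 and 10.5 CPM in WT. It reached 62.2, 64.3 and 66.1 CPM in cKO, which is 2.69 on the log2 scale (SE 0.065, adjusted p 5.44e-07). Aen (ENSMUSG00000030609; chromosome 7, 78895854 to 78911209) rose from 117, 115 and 97.5 CPM to 214, 184 and 191 CPM. Its log2 fold change of 0.84 (SE 0.086, adjusted p 0.000331) was under 2-fold, yet it added 86.4 CPM, against 84.7 CPM for Eda2r. Pidd1 (ENSMUSG00000025507; chromosome 7, 141438113 to 141444025) had 72.9, 67.7 and 50.9 CPM in WT and 117, 74.0 and 97.0 CPM in cKO. The highest WT library and the lowest cKO library nearly touched. The call on Pidd1 (log2 fold change 0.59, SE 0.19, adjusted p 0.0440) was lost without cKO replicate 1 (adjusted p 0.0734), cKO replicate 3 (0.119), or WT replicate 1 (0.0573), 2 (0.0984) or 3 (0.0947). It was kept without cKO replicate 2.

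The 2 members that act at the receptor complexes moved least in the mouse. Casp8 (ENSMUSG00000026029; chromosome 1, 58795374 to 58847503), the initiator caspase, was at 51.1, 48.2 and 47.7 CPM in WT and 56.7, 64.2 and 57.6 CPM in cKO. The log2 difference was 0.28 (SE 0.065, adjusted p 0.0132), and the call was lost without WT replicate 2 (adjusted p 0.0592). Ripk1 (ENSMUSG00000021408; chromosome 13, 34002363 to 34037147) was at 65.2, 67.6 and 69.2 CPM in WT and 77.7, 82.3 and 79.9 CPM in cKO, 0.25 higher on the log2 scale (SE 0.046, adjusted p 0.00531). Exons of Ripk1 share 241 bases with the antisense gene Serpinb6a (282 to 531 counts per library). Whether counting used strand is not given in the sources used here. In libraries of many cells, more transcript per cell and more cells with the transcript cannot be told apart.

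**Figure D1:**
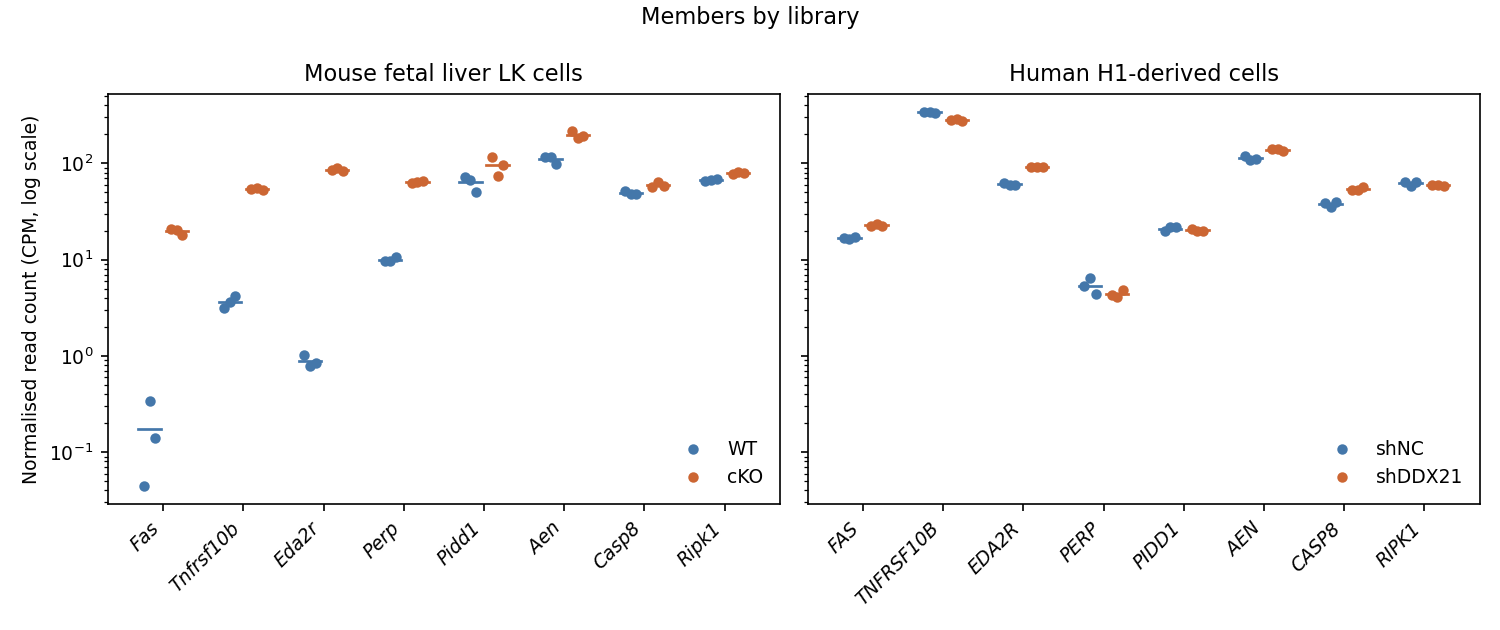
CPM (log scale) of each member in each library, with the 3 control libraries in blue and the 3 perturbed libraries in orange, and lines at the group means. Mouse Fas goes from 0.175 to 19.8 CPM on average and mouse Eda2r from 0.882 to 85.6 CPM, while the human groups lie close together for every member.

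To compare members with each other, levels were divided by exon length (RPKM, CPM per kilobase). In WT the order ran from Aen (19.0 ± 1.88 RPKM) and Casp8 (16.9 ± 0.646), whose libraries overlapped, through Pidd1 (14.1 ± 2.54), Ripk1 (8.07 ± 0.243), Perp (5.11 ± 0.251) and Tnfrsf10b (0.671 ± 0.0951) to Eda2r (0.150 ± 0.0225) and Fas (0.0848 ± 0.0733), which overlapped (SD, n = 3 each). Levels in WT thus spread over more than 2 orders of magnitude. In cKO they were much closer: Aen (33.9 ± 2.73 RPKM) and Perp (32.9 ± 0.985) overlapped at the top, and Tnfrsf10b (9.95 ± 0.223), Fas (9.59 ± 0.694) and Ripk1 (9.58 ± 0.272) overlapped at the bottom. Pidd1 (21.2 ± 4.81) and Casp8 (20.6 ± 1.41) overlapped between them, and Eda2r stood at 14.5 ± 0.530. Ranked by level gained rather than by fold, Perp came first with 27.8 RPKM more in cKO, then Aen with 14.9, Eda2r with 14.4, Fas with 9.51 and Tnfrsf10b with 9.28. Pidd1, Casp8 and Ripk1 gained 7.13, 3.64 and 1.52 RPKM.

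**Figure D2:**
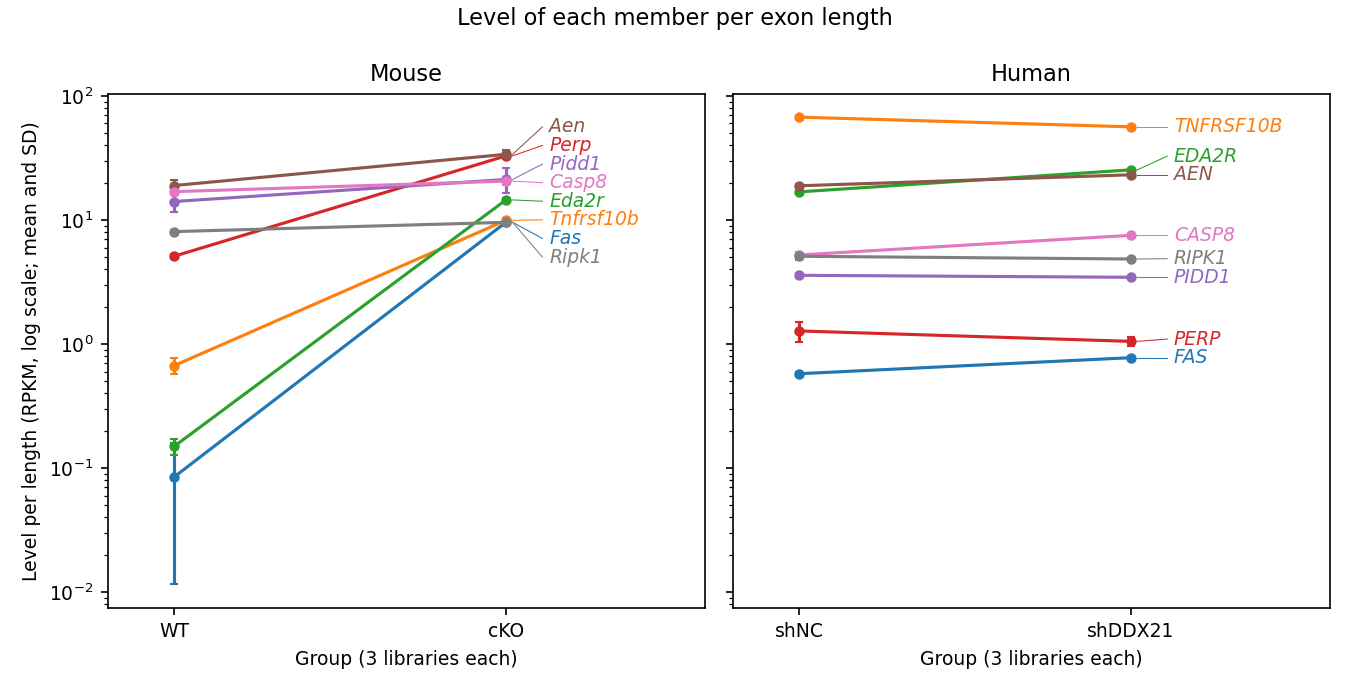
Level of each member per exon length (RPKM, log scale; mean and SD over 3 libraries) in the control and the perturbed group. Mouse Fas, Eda2r and Tnfrsf10b climb from 0.0848, 0.150 and 0.671 RPKM into the range of the other members, and the human lines are nearly flat.

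In the human cells the same genes moved little, and not all one way. FAS, EDA2R, AEN and CASP8 were higher in shDDX21, TNFRSF10B was lower, and PERP, PIDD1 and RIPK1 were not called. That is 4 of 8 called higher and 1 lower, where 52.7% of the 20188 human genes tested were called, 25.3% as higher and 27.4% as lower, and 7.18% with at least a 2-fold change, 3.35% upwards. The share of members called is close to that background. Groups did not overlap for 5 of 8 members, against 57.4% of all genes tested (27.9% with shDDX21 above and 29.5% below). No member reached a 2-fold change by edgeR, by DESeq2, or at an unadjusted p under 0.05. The median log2 fold change was 0.12 over the members and 0.0052 over all genes.

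The human receptor genes split. EDA2R (ENSG00000131080; hg38 chromosome X, 66595637 to 66639298) was at 62.6, 60.2 and 60.1 CPM in shNC and 91.7, 92.1 and 91.4 CPM in shDDX21, higher by 0.59 on the log2 scale (SE 0.039, adjusted p 6.70e-22). FAS (ENSG00000026103; chromosome 10, 88953813 to 89029605) rose from 16.9, 16.4 and 17.3 CPM to 22.2, 23.5 and 22.6 CPM, or by 0.43 (SE 0.075, adjusted p 1.24e-06). TNFRSF10B (ENSG00000120889; chromosome 8, 23020133 to 23069031), also called DR5, fell from 338, 340.1 and 337 CPM to 282, 288 and 278 CPM. It was thus the most abundant member in every human library and the member called lower (log2 fold change -0.26, SE 0.024, adjusted p 3.16e-15). Its exons share 377 bases with RHOBTB2 on the other strand. The exons of FAS share 387 bases with the antisense gene ACTA2, which had 183 to 353 counts per library against 252 to 433 for FAS. ACTA2 was itself called higher by 0.48 (adjusted p 3.60e-06), and without knowing the strand setting reads of the pair could not be separated. STAMBPL1 and 2 unnamed genes, with 35 counts or fewer in each library, also overlap FAS exons.

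AEN (ENSG00000181026; chromosome 15, 88621337 to 88632281) was at 118, 109 and 112 CPM in shNC and 140.3, 140.1 and 135 CPM in shDDX21. This rise of 0.29 on the log2 scale (SE 0.033, adjusted p 4.57e-12) separated all libraries. CASP8 (ENSG00000064012; chromosome 2, 201233443 to 201361836) went from 38.6, 35.0 and 39.8 CPM to 53.1, 53.2 and 57.1 CPM, or up by 0.52 (SE 0.052, adjusted p 3.37e-14). An unnamed gene with 58 to 113 counts per library shares 343 of its exon bases on the same strand. PERP (ENSG00000112378; chromosome 6, 138088505 to 138107419) was low throughout, at 5.29, 6.40 and 4.39 CPM in shNC and 4.31, 4.09 and 4.84 CPM in shDDX21. The groups overlapped, and the 95% interval of its log2 fold change (-0.27, adjusted p 0.133) ran from -0.57 to 0.034. Without shNC replicate 3 it was called lower (-0.40, adjusted p 0.0378). RIPK1 (ENSG00000137275; chromosome 6, 3063824 to 3115187) was at 64.8, 57.6 and 64.0 CPM and at 59.6, 59.4 and 58.1 CPM, with an interval from -0.17 to 0.013 (log2 fold change -0.077, adjusted p 0.147). It was called lower without shNC replicate 2 (-0.13, adjusted p 0.0214) or with total counts as the scale (-0.11, adjusted p 0.0406). PIDD1 (ENSG00000177595; chromosome 11, 799179 to 809753) stood at 19.7, 21.6 and 21.6 CPM and at 20.8, 19.98 and 19.9 CPM (log2 fold change -0.049, interval -0.20 to 0.099, adjusted p 0.611). Its exons share 342 bases with RPLP2 on the other strand, a ribosomal protein gene with 3422 to 5683 counts per library, so reads of the pair could not be separated without knowing the strand setting.

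Per length, TNFRSF10B led in shNC with 67.5 ± 0.323 RPKM, ahead of AEN (18.9 ± 0.773) and EDA2R (16.9 ± 0.393) (SD, n = 3 each). CASP8 (5.23 ± 0.349) and RIPK1 (5.10 ± 0.321) overlapped, followed by PIDD1 (3.58 ± 0.184), PERP (1.28 ± 0.240) and FAS (0.577 ± 0.0151). In shDDX21 EDA2R (25.4 ± 0.100) stood above AEN (23.2 ± 0.527), the one change of order, and CASP8 (7.53 ± 0.316) no longer overlapped RIPK1 (4.85 ± 0.0689). The human table counts 29313 exon bases for FAS against 2062 in the mouse, so its human level per length is low by construction. The controls of the 2 experiments differed widely in the receptors: EDA2R was at 61.0 CPM and TNFRSF10B at 338 CPM in shNC, against 0.882 and 3.66 CPM in WT. Species, cell source and vector differ between those controls, so these levels stand side by side without a test.

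The responses themselves were compared as the difference of the log2 fold changes, mouse minus human, in 1 fit of all 12 libraries over the 10301 genes matched by symbol and tested in both. All 8 members were called, 7 with the mouse response above the human and CASP8 below. Over all matched genes 56.3% were called, 35.9% with the mouse above and 20.4% below. A called difference of at least 2-fold was found for 12.9%, with the mouse above in 9.92%, and for 4 members. For FAS the filter had fixed a mouse difference, so its value is a description: 6.38 (SE 0.26), and 7.23 without WT replicate 2. With no filter it was 6.36 (adjusted p 2.84e-09). EDA2R differed by 5.996 (SE 0.090), TNFRSF10B by 4.15 (SE 0.079) and PERP by 2.96 (SE 0.16). For TNFRSF10B the 2 responses were called in opposite directions. AEN differed by 0.54 (SE 0.10, adjusted p 0.000769) and RIPK1 by 0.32 (SE 0.068, adjusted p 0.00171). PIDD1 differed by 0.64 (SE 0.23, adjusted p 0.0343) and CASP8 by -0.24 (SE 0.091, adjusted p 0.0378), and both calls came and went with the setting. The adjusted p of PIDD1 ranged from 0.00185 to 0.0672 over 18 alternatives and was above the threshold in 7 of them, each leaving out 1 library: WT replicate 3 (0.0586), cKO replicate 3 (0.0595), shNC replicate 2 (0.0656) or 3 (0.0672), or shDDX21 replicate 1 (0.0556), 2 (0.0637) or 3 (0.0660). That of CASP8 ranged from 0.0103 to 0.207 and was above it in 9: with total counts as the scale (0.207), and without WT replicate 1 (0.0855) or 2 (0.0506), cKO replicate 1 (0.0735) or 3 (0.0844), shNC replicate 1 (0.0536) or 2 (0.0961), or shDDX21 replicate 2 (0.0509) or 3 (0.0903). Species, cell source, the means of removing DDX21 and the time since its loss all differ between the experiments and cannot be told apart here. The control levels of EDA2R and TNFRSF10B, given above, differed too.

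**Figure D3:**
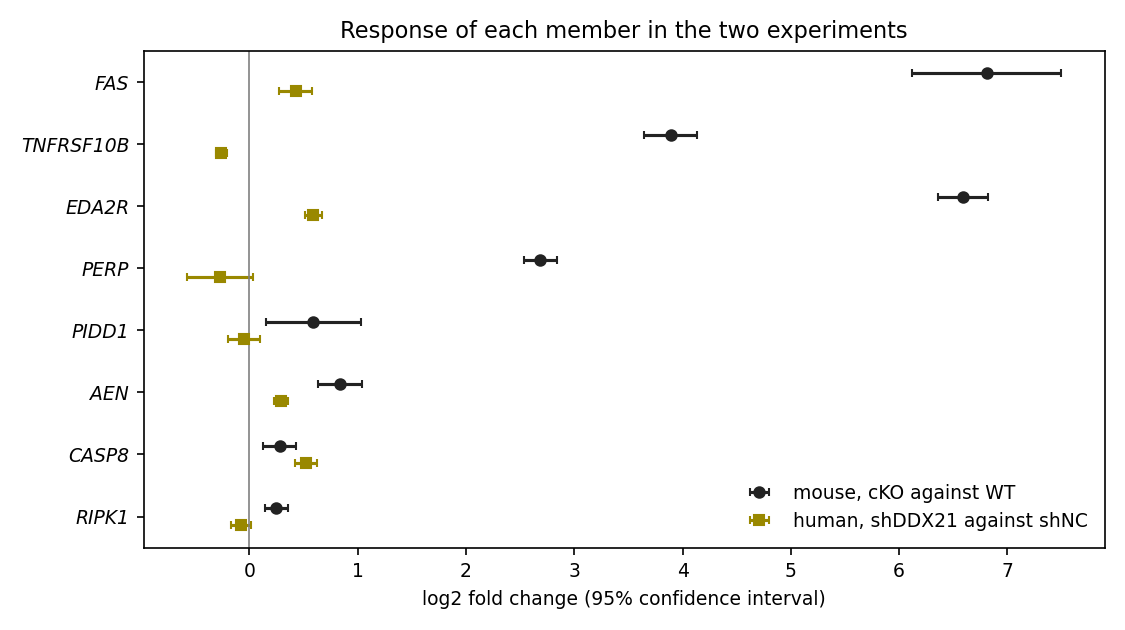
log2 fold change of each member with its 95% confidence interval, in the mouse (circles) and the human experiment (squares), against a line at no change. The circles of FAS, EDA2R, TNFRSF10B and PERP lie at 6.81, 6.59, 3.89 and 2.69, and all human squares lie between -0.27 and 0.59.

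Related genes were counted from lists fixed for these pathways, with the members left out. Over all mouse genes tested, 20.7% were called higher and 15.8% lower. Over all human genes tested it was 25.3% and 27.4%. These shares stand beside each list count below. Among other TNF-family receptors and their ligands, 5 of 8 mouse genes tested were called higher and none lower. None was lower at an unadjusted p under 0.05 or by DESeq2, which called 4 higher, and the median log2 fold change was 0.39. Tnfrsf22, a decoy receptor for TRAIL, changed by 0.92 (adjusted p 0.00118), Tnfrsf21 by 0.35, Tnf by 0.86 and Tnfrsf1b by 0.51. Tnfsf10, the TRAIL gene, changed by 0.44, from 3.25 to 4.42 CPM. Human genes of this list went down: 7 of 9 were called lower and none higher (none higher at an unadjusted p under 0.05 or by DESeq2, which called 6 lower), with a median of -0.22. TNFRSF25 fell by 1.04 on the log2 scale, TNFSF10 by 0.65, TNFRSF1A by 0.22 and the decoy receptor gene TNFRSF10D by 0.20.

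Genes of the receptor signalling complex rose in part in the mouse. Of 26 tested, 11 were called higher and none lower by edgeR, against 2 lower at an unadjusted p under 0.05 and 2 lower by DESeq2, and the median was 0.097. Mlkl, the executor of necroptosis, changed most clearly, with 5.45 ± 0.574 CPM in WT against 15.2 ± 0.881 CPM in cKO (SD, n = 3 each). That is a rise of 1.48 on the log2 scale (SE 0.11, adjusted p 6.18e-05). Cflar, the inhibitor of caspase-8 activation, changed by 0.57, Map3k7, the kinase TAK1, by 0.57, and Edaradd, an adaptor in ectodysplasin signalling, by 1.64 from a low 0.544 CPM. The adaptor Fadd had 25.1 CPM in WT against 23.3 CPM in cKO and was not called. Among the human genes 10 of 25 were called higher and 10 lower, with a median of -0.0090. BIRC3, an inhibitor of apoptosis, fell by 2.27 on the log2 scale, TRAF3 by 0.66 and TAB2 by 0.30, and RBCK1, a part of the linear ubiquitin ligase, rose by 0.54.

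Apaf1, which nucleates the apoptosome, rose by 1.195 (adjusted p 7.95e-06) from 79.5 to 182 CPM in the mouse. Casp2, the caspase of the PIDDosome, fell by 0.20 and its linker Cradd, at 4.51 and 4.27 CPM, was not called. In shDDX21 cells APAF1 changed by -0.64 (from 51.9 to 33.2 CPM), CASP2 by -0.11 and CRADD by -0.42, all called lower. Nucleases of cell death and relatives of AEN showed no common direction. In the mouse 2 of 15 were called higher and 2 lower (median -0.061). Dffb, the caspase-activated DNase, rose by 0.55 from 26.3 to 38.6 CPM, Rexo2 rose by 0.22, and Dnase1l1 and Rexo4 changed by -0.47 and -0.17. Of the human genes 5 of 14 were called higher and 4 lower (median 0.072), with ISG20, a relative of AEN, at 0.99, DNASE1L1 at 0.77, ENDOG at -0.90 and EXOG at -0.54.

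For p53 itself and its main regulators, Trp53 mRNA was not called in the mouse (313 CPM in WT, 297 CPM in cKO). Of 15 tested, 6 were called higher and 4 lower (median -0.067). Cdkn1a rose by 5.81, Ccng1 by 2.86, Mdm2 by 2.50 and Mdm4, which restrains p53, by 0.82. In the human cells 7 of 16 were called higher and 6 lower (median 0.074). CCNG1 rose by 0.80, CDKN1A by 0.59 and RPL11, which can share reads with processed copies, by 0.45, and CHEK1 fell by 0.72. CDKN1A was at 814 CPM in shNC, against 5.08 CPM for Cdkn1a in WT.

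**Figure D4:**
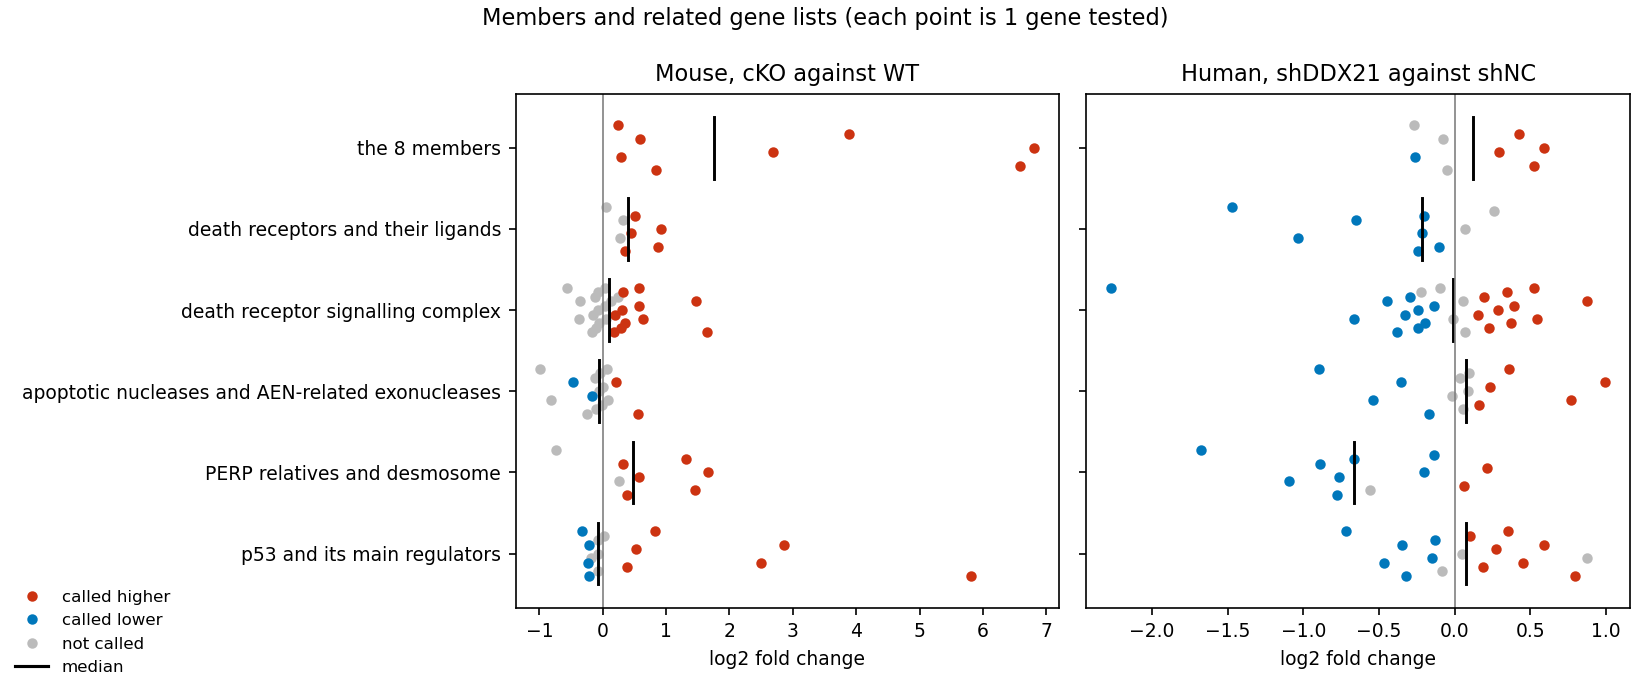
log2 fold change of the 8 members and of each tested gene of 5 related lists, coloured by call, with a black line at each median. The 2 panels have different scales. The mouse members reach 6.81, beyond every list gene shown, and the human members stay within 0.59 of no change.

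Genes with the most similar pattern were found by the root mean square distance between log2 CPM profiles over the 12 libraries, centred on the controls of each experiment, among the 10301 matched genes. Nearest to EDA2R were DGLUCY, at a distance of 0.24 log2 units, and CDKN1A, at 0.37. FAS lay nearest to DGLUCY (0.36) and to EDA2R (0.43). TNFRSF10B lay nearest to ARAP2 (0.18) and EGR1 (0.22), both higher in the mouse and lower in the human cells like TNFRSF10B. PERP was nearest to IGDCC4 (0.13) and PLXDC2 (0.18), PIDD1 to MAN2A2 (0.081) and AFAP1L1 (0.096), and AEN to ARHGAP30 (0.061) and SEPTIN1 (0.063). CASP8 was nearest to MANBA (0.063) and SERINC1 (0.067), and RIPK1 to AKAP9 (0.028) and SKIC3 (0.036).

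Markers of other cells moved with the genotype in the mouse. Of 14 hepatocyte and hepatoblast markers matched, 10 were tested and 7 were called higher, and their summed level was 20.1 to 22.8 CPM in WT and 57.2 to 61.3 CPM in cKO, with no marker at 0 throughout. Of 10 endothelial markers 8 were tested and 5 were called higher (summed 72.6 to 79.5 CPM in WT and 115 to 118 CPM in cKO). None of these was called lower by edgeR, and 1 was by DESeq2. The 9 macrophage markers summed to 37.5 to 40.9 CPM in WT and 14.4 to 17.3 CPM in cKO, with C1qc at 0. Only 4 of them were tested, and they did not move together. Csf1r and Adgre1 were called lower, Cd68 was called higher by edgeR (log2 fold change 0.33) but not by DESeq2, and Vcam1 was not called. Most of the fall in the sum came from Csf1r, whose mean dropped from 30.5 to 7.20 CPM. The 8 epithelial markers, listed because Perp is an epithelial gene, summed to 2.13 to 2.58 CPM in WT and 3.36 to 3.85 CPM in cKO, with Krt5 and Krt14 at 0. In the human cells 5 epithelial markers with a paired symbol summed to 25.6 to 26.3 CPM in shNC and 19.4 to 25.1 CPM in shDDX21. Other human marker lists moved both ways: 4 of 9 endothelial markers tested were called higher and 4 lower. For macrophage markers 1 of 6 was called higher and 4 lower, and for mesenchymal markers 2 of 5 and 3. For hepatocyte markers it was 3 of 5 and 2, and for pluripotent markers 1 of 3 and 1. Whether such cells were present, and their part in the members' changes, was not tested.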

How the data were processed

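Poly(A) RNA from 12 libraries was used, grouped by genotype or hairpin from the sample titles. The submitters' processing notes name STAR, featureCounts and DESeq2 and the builds mm10 and hg38, with no roles or versions. As deposited, the raw tables give whole-number counts per gene and an exon length. The deposited normalized tables hold a signal equal to the raw count over 1 constant per library (largest relative deviation 4.97e-10) and its log2 ratio to the control mean, as the authors gave them. Only their symbols were used. GENCODE M21 supplied further mouse symbols: 99.5% of mouse identifiers were found, 99.4% of them at the same position. Human symbols exist here for the 14931 genes that the deposited table names, so human list counts cover those. Per-sample columns left unused: 0.

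Tests on the counts used edgeR 4.0.16 under R 4.3.3 (filterByExpr, TMM, glmQLFit and glmQLFTest, two-sided, no covariates), separately per experiment and, for the difference of responses, in 1 fit of 12 libraries. SE is the size of the log2 fold change divided by the root of the F statistic, and 95% intervals use the test's degrees of freedom. The procedure was run on simulated data in which only well covered genes changed. Those data held no start as low as that of mouse Fas and no rise as large. Alternatives were RLE, total-count and upper-quartile scaling, DESeq2 1.42.0, 2 other filters, a 2-fold minimum, a replicate block and each library left out. With 3 libraries against 3 an exact permutation test goes no lower than 0.1 (two-sided), so the fit across genes carries each call. Counts carry no molecular identifiers, so count intervals cover counting error only. No pair of replicates was within sampling noise (chi-square per degree of freedom 1.54 to 25.9). The members and lists were chosen with earlier results of these data known. Named genes are the members, Ddx21, up to 4 called genes with the smallest p per list and experiment, and the 2 most similar genes per member. 1 list and some of its genes are not reported here. Tnfsf10, Fadd, Casp2, Cradd, human APAF1 and Trp53 were named after their values were seen. So were Kit, the other progenitor markers, the macrophage markers, ACTA2 and the TNF-family relatives in the closing section.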

Additional observations from a re-analysis of the deposited data

Results flagged for a closer look

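The responses of all 8 members were called as different between the 2 experiments in the fit of all 12 libraries (edgeR's quasi-likelihood test, mouse minus human log2 fold change, adjusted p under 0.05). The difference was 6.38 for FAS, 5.996 for EDA2R, 4.15 for TNFRSF10B and 2.96 for PERP. It was 0.64 for PIDD1, 0.54 for AEN and 0.32 for RIPK1, and -0.24 for CASP8. The calls on PIDD1 and CASP8 were lost in 7 and 9 of 18 alternatives, and a difference for FAS was fixed by the filter on low counts. FAS, EDA2R, TNFRSF10B and PERP were also the 4 members past a 2-fold difference, which 12.9% of matched genes reached. With 56.3% of all matched genes called, a call on its own sets no member apart.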

How the results depend on the processing

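Single-gene values were recomputed in 350 combinations of member, comparison and alternative, of which 324 kept direction and side of the threshold. EDA2R, TNFRSF10B, PERP, AEN and RIPK1 kept their mouse calls in every alternative run. Their log2 fold changes were 6.50 to 6.72, 3.79 to 3.99, 2.66 to 2.75, 0.75 to 0.90 and 0.22 to 0.31. For FAS the value ran from 6.34 to 7.67, a description wherever the filter on low counts had fixed a difference. Mouse Fas could not be tested with 10 counts required in every library. Human PIDD1 changed sign with upper-quartile factors (0.020, adjusted p 0.841), within its interval. Requiring a 2-fold change left 1354 mouse genes, 1450 human genes and 1329 differences between them, and among the members 4 in the mouse, 0 in the human cells and 4 differences. This follows from its construction. Mouse calls split 56.6% higher with TMM and 68.9% higher with total counts. Same-numbered libraries did not pair (correlations of deviations -0.18 to 0.32 in the mouse). With replicate number as a block 5166 mouse genes, 10601 human genes and 5718 differences were called, and 8, 5 and 8 members. Human replicates varied little (biological coefficient of variation 2.23%, against 10.5% in the mouse), so small human changes were called. Depth limits mouse Fas, with 11 counts in all WT libraries.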

Other observations

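Some genes related to PERP by structure or by its place in desmosomes responded differently in the 2 experiments. In the mouse 6 of 8 tested were called higher and none lower (1 lower at an unadjusted p under 0.05, none by DESeq2), with a median log2 fold change of 0.47, where 20.7% of all genes were called higher. In the human cells 8 of 11 were called lower and 2 higher (median -0.66), where 27.4% of all genes were called lower. Pkp2, a desmosome plaque protein, rose from 1.15 to 3.63 CPM in the mouse (log2 fold change 1.66), while PKP2 fell from 4.91 to 1.55 CPM in the human cells (-1.67). The difference of 3.33 (SE 0.26) had an adjusted p of 6.38e-07. DSG2, a desmosomal cadherin, changed by 1.32 and -0.78, PKP4 by 0.31 and -0.20. Of 7 such genes tested in both, 4 were called with the mouse response above the human and none below, also at an unadjusted p under 0.05. The other 3 were not called: EMP1 (-0.73 and -0.76), EMP3 (0.38 and 0.21) and JUP (0.25 and 0.061). Among other TNF-family receptors and ligands it was 5 of 6. TNF (0.86 and -1.47), TNFSF10 (0.44 and -0.65) and TNFRSF1B (0.51 and -0.10) were called in opposite directions. TNF was low in both experiments, at 1.17 CPM in WT and 1.31 CPM in shNC. Nucleases and relatives of AEN had 2 of 13 above and 6 below. Over all matched genes 35.9% were called with the mouse above and 20.4% below. Mouse Pkp3, with 0.806 CPM in WT against 2.22 CPM in cKO, rose by 1.45, and human PMP22, a tetraspan gene of PERP's wider family, fell by 0.89.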
